A study of Mus musculus with 6 samples.

Results

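The respiratory chain genes of the nuclear genome encode most subunits of the 5 complexes of oxidative phosphorylation in mitochondria. They were examined here in ATAC-seq data from mouse lung endothelial cells, the cells that line the vessels of the lung. Regions were taken where the first gene symbol of the deposited table began with Nduf, Uqcr, Cox4 to Cox8 or Atp5, or was Sdha, Sdhb, Sdhc or Sdhd, and where the gene was marked as protein-coding. This rule took 84 of 58172 regions, which belong to 73 genes. Of these regions, 69 lay no more than 1 kb from a gene's start in the distances that the authors deposited and are called promoters. The other 15 lay further away, up to 5065 bp. A promoter was found for 68 of the 73 genes, 9 genes had regions of both kinds, and 5 had no promoter region.

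The tested libraries were 3 from Cre-positive mice, called CSE-KO, without cystathionine gamma-lyase, which makes cysteine and hydrogen sulfide and is the product of the gene Cth. They were set against 3 libraries from Cre-negative mice (WT), to ask how open chromatin differs when the enzyme is lost. Each library was made from 50000 cells with the transposase Tn5, which inserts sequencing adapters into open DNA. The sources used here do not give the Cre driver, the age of the mice or whether each library came from a separate animal. The p-values therefore reflect the spread between these libraries, which may be technical. Cre and the loss of the enzyme cannot be told apart in this design.

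Complex I passes electrons from NADH to ubiquinone, complex II passes them from succinate, complex III hands them to cytochrome c and complex IV to oxygen. Complex V, the ATP synthase, uses the proton gradient that complexes I, III and IV build. Hydrogen sulfide touches this chain at both ends: it feeds electrons into ubiquinone through the enzyme SQOR and, at higher levels, inhibits complex IV. Many nuclear genes of the chain have promoters rich in CpG that are bound by the activators NRF1 and GABPA, an ETS factor, and by YY1.

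The libraries were similar in scale and differed in depth. The values summed to between 5437296 and 5547417 in CSE-KO and between 5242490 and 5368491 in WT. In CSE-KO the low values skip whole numbers, as rounded normalised counts do, and 1 read was worth an estimated 1.53 to 1.64 units, or 3330000 to 3620000 reads in regions. The WT values skip none, so 1 read was worth no more than about 1 unit there, and the WT libraries were the deeper ones. The SD between replicates on the log2 scale was 0.481 in CSE-KO and 0.306 in WT. The promoter of Cth had values of 11, 6 and 2 in CSE-KO, against 195, 157 and 167 in WT, so no library went against its label. Of 12 endothelial markers, 10 had a promoter region, with summed values of 1409 to 1597 in CSE-KO and 1261 to 1354 in WT. Of these 10, Kdr and Tek were called higher and Tie1 and Egfl7 lower. For other cell types, 3 of 8 mural and fibroblast markers (228 to 263 in CSE-KO, 154 to 159 in WT), 3 of 8 lung epithelial markers (57 to 89 and 66 to 71) and 2 of 8 leukocyte markers (175 to 186 and 247 to 284) had one. Of these, Col1a1 (fibroblast) and Epcam (epithelial) were called higher and Spi1 (leukocyte) lower, while the epithelial median log2 change was -0.53. Fewer cells of a type and less accessibility per cell cannot be told apart, and the part of other cell types in the results below was not tested.

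Few respiratory chain promoters passed the test, and those that did were higher in CSE-KO. On log2(value + 1), limma with Benjamini-Hochberg adjustment over 58129 regions called 5 of the 69 promoters (7.25%) higher and 0 lower. Over all 13246 promoters tested, 8.52% were called, 5.23% higher and 3.29% lower, and over all regions tested 7.7% were called higher and 9.6% lower, so the share called higher is near that of promoters in general. At an unadjusted p under 0.05, 19 of the 69 (27.5%) were higher and 0 lower, against 16.1% and 7.82% of all promoters. All promoters include those of genes not marked as protein-coding. Of the 11425 protein-coding promoters alone, 4.93% were called higher and 1.93% lower, and 16.2% and 5.87% had an unadjusted p under 0.05. The 5 promoters were those of Ndufb4, Ndufa10 and Ndufs7 of complex I and of Cox4i1 and Cox6c of complex IV. None of the 3 promoters of complex II, the 6 of complex III or the 12 of complex V was called. At an unadjusted p under 0.05, 2 promoters of each of these 3 complexes were higher and 0 lower, which for complex V (16.7%) is at the 16.1% of all promoters.

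Most respiratory chain promoters nevertheless had a small positive change. Their median log2 change was 0.28, against 0.11 for all promoters, and 54 of 69 (78.3%) lay above 0, against 61.4% of all promoters. The changes ran from -0.34 to 1.10, while those of all promoters ran from -4.78 to 7.05. In 24 promoters (34.8%) every CSE-KO library was above every WT library, and in 6 (8.7%) every CSE-KO library was below, where the shares over all promoters were 23.9% and 12.1%. Over protein-coding promoters alone these shares were 24.8% and 10.5%, the median log2 change was 0.12 and 63.4% lay above 0. Promoters as a class held more of the values in CSE-KO. With each library centred on its median over promoters, the median of all promoters moved from 0.11 to -0.01, that of the respiratory chain promoters to 0.16, and 44 of 69 lay above 0. In that scaling 3 were called higher and 0 lower, against 3.1% and 5.28% of all promoters.

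**Figure D1:**
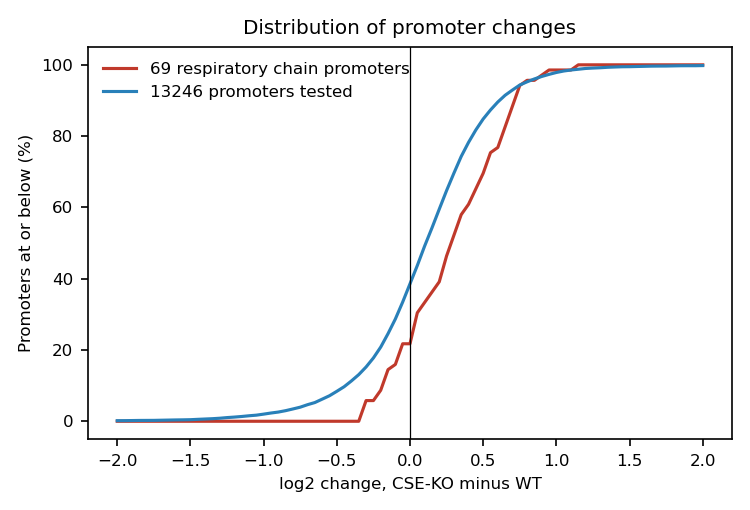
Cumulative share of promoters (y axis, percent) at or below each log2 change, CSE-KO minus WT (x axis). The curve of the 69 respiratory chain promoters lies to the right of the curve of all 13246 promoters tested around the middle, with medians of 0.28 and 0.11, and holds none of the large changes in either direction.

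Summed over the 69 promoters, the values were 13637, 13603 and 13862 in CSE-KO, against 11741, 11824 and 11668 in WT. All CSE-KO sums lay above all WT sums. This is 0.249% ± 0.0031 of all values in CSE-KO and 0.222% ± 0.003 in WT (SD, n = 3 each), and the mean sum was 1.17 times the WT mean. Over all promoters the same ratio was 1.1, and there too the sums did not overlap. They were 2392115 to 2534512 in CSE-KO and 2205051 to 2272297 in WT.

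Complex I, the NADH dehydrogenase, was represented by 37 promoters: 5 of core subunits, which carry the flavin and the iron-sulfur clusters, 23 of accessory subunits, 8 of assembly factors and that of Ndufa4. Of these, 3 were called higher, 30 lay above 0 and the median log2 change was 0.28. Ndufa4 is counted here by its name, although its protein is found in complex IV. The median was 0.25 for core subunits, 0.33 for accessory subunits and 0.29 for assembly factors.

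Ndufb4, an accessory subunit of the membrane arm, had the strongest evidence of all respiratory chain promoters. Its region (chromosome 16, 37653840 to 37654594, mm10) had values of 178, 175 and 194 in CSE-KO, against 104, 98 and 89 in WT, with no overlap. That is 182 ± 10.2 in CSE-KO and 97 ± 7.55 in WT (SD, n = 3 each), a 1.87-fold rise (log2 change 0.91 ± 0.16 SE, limma adjusted p = 0.0122). Ndufb4 was no longer called when WT replicate 2 or WT replicate 3 was dropped (adjusted p = 0.0528 and 0.0586).

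Ndufa10, an accessory subunit, and Ndufs7, a core subunit that holds the iron-sulfur cluster next to ubiquinone, also rose. The Ndufa10 promoter (chromosome 1, 92473325 to 92474420) had 203, 187 and 221 in CSE-KO, against 118, 108 and 141 in WT (1.67-fold, log2 change 0.74 ± 0.18 SE, limma adjusted p = 0.0318). The Ndufs7 promoter (chromosome 10, 80249004 to 80249698) had 299, 277 and 285 in CSE-KO, against 162, 208 and 178 in WT (1.58-fold, log2 change 0.66 ± 0.17 SE, limma adjusted p = 0.0383). At both promoters every CSE-KO library lay above every WT library. Neither call was stable to the choice of libraries. That of Ndufa10 ended without CSE-KO replicate 1 or 3 or any of WT replicates 1 to 3 (adjusted p = 0.0574, 0.067, 0.106, 0.116 and 0.0633). That of Ndufs7 ended without any one of CSE-KO replicates 1 to 3 (adjusted p = 0.0724, 0.0618 and 0.0675) or WT replicates 1 to 3 (adjusted p = 0.132, 0.0732 and 0.123), and on promoter-centred values (adjusted p = 0.0728).

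The promoters of the called complex I genes are shown with that of Cox7c, whose promoter had the lowest log2 change of the 69, so that their make-up can be compared. Each is the RefSeq window of GRCm38.p6 (the assembly behind mm10) from 250 bases before to 50 after the gene's start, 5′ to 3′ on the gene's strand. Capitals mark matches to the NRF1 letters (GCGC, any 2 bases, then GCGC again), the ETS and GABPA letters CCGGAAG and the YY1 letters AAGATGG on either strand. The windows are chr16:37654319-37654618 (minus strand), chr1:92473709-92474008 (minus), chr10:80249199-80249498 (plus) and chr13:86046746-86047045 (minus).
Ndufb4: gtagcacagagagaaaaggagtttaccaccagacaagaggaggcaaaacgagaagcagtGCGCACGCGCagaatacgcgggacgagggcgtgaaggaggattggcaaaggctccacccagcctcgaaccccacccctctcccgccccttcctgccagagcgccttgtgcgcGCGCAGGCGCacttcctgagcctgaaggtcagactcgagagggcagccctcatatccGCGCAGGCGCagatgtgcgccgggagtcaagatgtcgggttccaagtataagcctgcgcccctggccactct
Ndufa10: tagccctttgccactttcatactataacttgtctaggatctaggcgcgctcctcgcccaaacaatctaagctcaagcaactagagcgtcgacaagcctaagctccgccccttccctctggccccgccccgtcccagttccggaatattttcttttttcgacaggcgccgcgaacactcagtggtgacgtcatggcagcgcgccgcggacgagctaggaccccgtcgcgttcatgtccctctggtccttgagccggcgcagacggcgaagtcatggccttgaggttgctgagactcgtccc
Ndufs7: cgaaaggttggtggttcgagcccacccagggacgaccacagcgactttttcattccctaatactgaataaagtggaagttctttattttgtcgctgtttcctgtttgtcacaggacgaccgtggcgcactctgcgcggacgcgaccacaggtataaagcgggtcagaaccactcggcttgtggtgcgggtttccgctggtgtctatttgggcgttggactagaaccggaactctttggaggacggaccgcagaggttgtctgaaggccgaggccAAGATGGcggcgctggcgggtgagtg
Cox7c: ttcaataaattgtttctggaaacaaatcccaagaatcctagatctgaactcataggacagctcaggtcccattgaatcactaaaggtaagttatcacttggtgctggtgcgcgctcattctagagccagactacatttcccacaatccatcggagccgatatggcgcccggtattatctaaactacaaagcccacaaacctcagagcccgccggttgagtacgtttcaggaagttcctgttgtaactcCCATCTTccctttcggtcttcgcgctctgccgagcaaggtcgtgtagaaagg
The Ndufb4 window holds 3 NRF1 matches, the Ndufs7 and Cox7c windows hold 1 YY1 match each, and the Ndufa10 window holds none of these letters.

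Of the 68 genes with a promoter region, 59 could be matched to a RefSeq promoter window by symbol or synonym. The windows used here hold none for Ndufs1, Ndufaf6, Sdhc, Uqcrb, Uqcrc2, Uqcrq, Cox4i1, Cox6c and Atp5mpl. The motif counts and medians below therefore leave out the called promoters of Cox4i1 and Cox6c. NRF1 letters were in 16 of these 59 windows (27.1%), against 15.6% of 8617 windows of protein-coding genes that start inside a tested promoter region and 8.8% of all 17492 protein-coding windows. The YY1 letters were in 9 (15.3%), against 7.71% and 6.37%, and those of ETS and GABPA in 13 (22%), against 20.4% and 11.9%. The last letters of the ETS motif and the first of the YY1 motif can overlap. At least 1 of the 3 motifs was in 35 of 59 windows (59.3%), against 38% of the windows in tested promoters. Sdha, of complex II, and Ndufb4 had 3 NRF1 matches each. The TATA box letters TATAAA were in 5 (8.47%), against 6.14% and 13.3%, and CCAAT in 25 (42.4%), against 40% and 39%. Respiratory chain promoters had a median ratio of observed to expected CpG of 0.823, against 0.802 in tested promoters. The median log2 change was 0.23 with and 0.23 without the NRF1 letters, 0.20 with and 0.27 without those of ETS and GABPA, and 0.43 with and 0.21 without those of YY1. It was 0.53 with and 0.22 without TATAAA, and 0.11 with and 0.29 without CCAAT, so the difference did not go one way across the motifs. The Atp5mc2 window, with NRF1 letters, lies in that gene's region further than 1 kb from the start, but was paired with the log2 change of its promoter region. These are letter matches in a window of 300 bases and not measured binding.

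Among the remaining complex I genes, the Ndufb8 promoter, of a membrane arm subunit, had 173, 136 and 166 in CSE-KO, against 96, 118 and 97 in WT. The groups did not overlap, but the promoter was not called (log2 change 0.61 ± 0.18 SE, limma adjusted p = 0.0606). Ndufv2, a core subunit with an iron-sulfur cluster, had the highest values of the complex, with 516, 415 and 546 in CSE-KO and 453, 370 and 417 in WT. Its groups overlapped (log2 change 0.25 ± 0.18 SE, adjusted p = 0.38). The other non-overlapping rises without a call were at Ndufa9, Ndufb3, Ndufb6, Ndufc2, Ndufs1 and Ndufs5, at the assembly factor Ndufaf6 and at both promoter regions of the assembly factor Ndufaf4. Every CSE-KO library was below every WT library at Ndufa11, Ndufab1, the acyl carrier protein, and Ndufaf8, with log2 changes of -0.23, -0.22 and -0.30 and no call. At Ndufv1, the subunit that binds NADH, the means were almost the same, 224 ± 29.6 in CSE-KO and 223 ± 27.6 in WT (SD, n = 3 each).

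**Figure D2:**
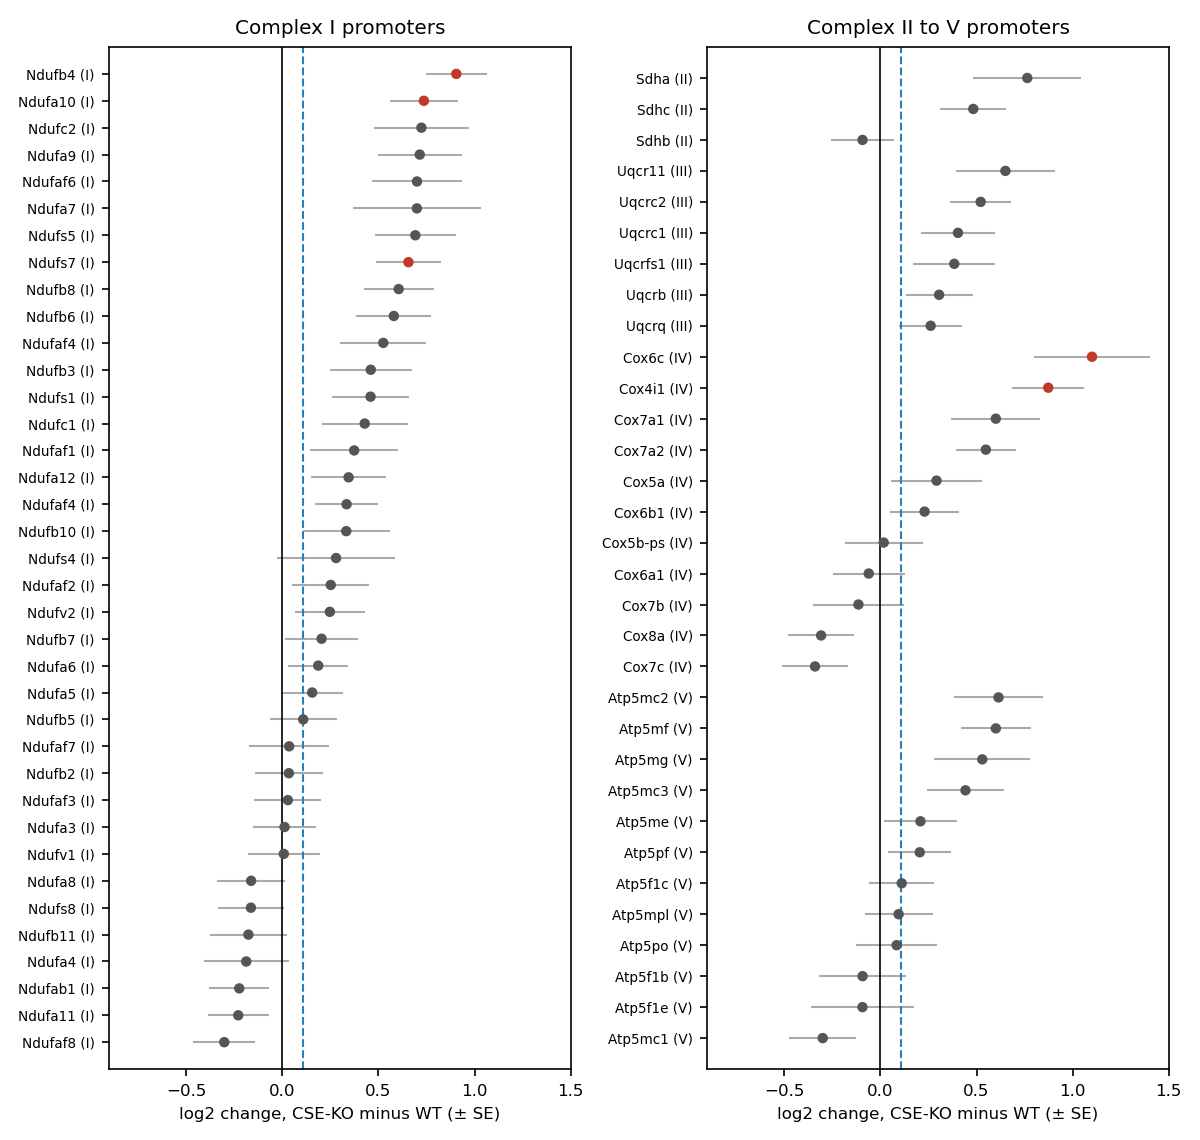
Log2 change of each respiratory chain promoter, CSE-KO minus WT (x axis, bars are SE from limma), by complex. Red points were called, the dashed line is the median of all promoters tested (0.11). Of 69 points, 54 lie above 0, all 6 of complex III among them.

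Complex II, succinate dehydrogenase, had 3 promoters and no call. The promoter of Sdha, the flavoprotein that oxidises succinate, had 245, 192 and 115 in CSE-KO, against 101, 102 and 106 in WT. The WT libraries lay close together and all CSE-KO libraries lay above them, but far apart from each other, with a log2 change of 0.76 ± 0.28 (SE, limma adjusted p = 0.103). Of the 6 fits that leave out 1 library each, only that without CSE-KO replicate 3, the lowest of its group, passed the test (1.07, adjusted p = 0.0204). The others gave changes of 0.53 to 0.79 and adjusted p of 0.193 to 0.227. Sdhc, a membrane anchor, had 173, 204 and 161 in CSE-KO, against 116, 134 and 133 in WT (log2 change 0.48 ± 0.17 SE, adjusted p = 0.0956), without overlap. Sdhb, the iron-sulfur subunit, had 173, 142 and 148 in CSE-KO and 154, 164 and 175 in WT, with overlapping groups (log2 change -0.09 ± 0.16 SE, adjusted p = 0.728). The changes of Sdha and Sdhc thus lay above 0, while that of Sdhb was smaller than its SE and shows no direction. No difference between the subunits was tested.

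Complex III, cytochrome bc1, had 6 promoters under the name rule, which does not take its subunit gene Cyc1. All were above 0, with log2 changes of 0.26 to 0.65 and a median of 0.39. All 6 stayed above 0 under each of the 17 alternative settings, but only some of these could change a sign. The filters, trend and robust, array weights, the replicate block, the promoter distances and membership by any symbol leave these log2 changes as they are. Of those that could, promoter-centred values gave a median of 0.27, and leaving out single libraries gave 0.34 to 0.46. None of the 6 promoters was called. Their sum was 1306, 1356 and 1283 in CSE-KO, against 987, 1027 and 965 in WT, a ratio of means of 1.32 that lay above the 1.1 of all promoters. Uqcrc2, a core protein of the complex, had 363, 340 and 394 in CSE-KO, against 238, 253 and 272 in WT. Its groups stood clearly apart, yet the promoter missed the threshold (log2 change 0.52 ± 0.16 SE, limma adjusted p = 0.0633). Uqcrc1, the other core protein, had 170, 211 and 169 in CSE-KO, against 158, 141 and 117 in WT (log2 change 0.40 ± 0.19 SE, adjusted p = 0.183). Uqcr11, a small subunit, had 101, 104 and 59 in CSE-KO and 48, 52 and 63 in WT. CSE-KO replicate 3 overlapped WT there, and the promoter was not called (log2 change 0.65 ± 0.26 SE, adjusted p = 0.126). Without that library the change was 0.91 (adjusted p = 0.0319), and without each other library in turn it was 0.51 to 0.76 (adjusted p = 0.177 to 0.299). Uqcrfs1, the Rieske iron-sulfur protein, had 203, 216 and 139 in CSE-KO and 128, 147 and 145 in WT (log2 change 0.38 ± 0.21 SE, adjusted p = 0.248).

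Complex IV, cytochrome c oxidase, spanned the widest range, from -0.34 at Cox7c to 1.10 at Cox6c, with 7 of 11 promoters above 0 and a median of 0.23. The median was 0.14 without CSE-KO replicate 3 and 0.15 without WT replicate 3, close to the 0.11 of all promoters. Cox4i1, the ubiquitous form of subunit 4, which takes part in the control of the enzyme by ATP, rose at its promoter (chromosome 8, 120667696 to 120668688). It had 258, 256 and 189 in CSE-KO, against 119, 126 and 134 in WT, or 234 ± 39.3 in CSE-KO and 126 ± 7.51 in WT (SD, n = 3 each). The rise was 1.83-fold (log2 change 0.87 ± 0.19 SE, limma adjusted p = 0.0227), and the groups did not overlap. The call ended without CSE-KO replicate 2 or any of WT replicates 1 to 3 (adjusted p = 0.0508, 0.086, 0.0805 and 0.0709).

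Cox6c, a small subunit, had the largest change of the 69 promoters (chromosome 15, 35937183 to 35938272). It had 155, 81 and 157 in CSE-KO, against 48, 71 and 57 in WT (2.15-fold, log2 change 1.10 ± 0.30 SE, limma adjusted p = 0.0462). CSE-KO replicate 2 was only just above the highest WT library. The call ended without CSE-KO replicate 1 or 3 or any of WT replicates 1 to 3 (adjusted p = 0.102, 0.103, 0.146, 0.0854 and 0.129), and on promoter-centred values (adjusted p = 0.0669).

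Both forms of subunit 7a lay higher in CSE-KO without a call. Cox7a2, the ubiquitous form, had 261, 231 and 235 in CSE-KO, against 163, 176 and 157 in WT, with no overlap (log2 change 0.55 ± 0.16 SE, limma adjusted p = 0.0525). Cox7a1, the form of heart and skeletal muscle, had 56, 44 and 77 in CSE-KO, against 39, 40 and 34 in WT (log2 change 0.60 ± 0.23 SE, adjusted p = 0.117). Further small subunits pointed the other way. Cox8a, with the highest values of the complex, had 238, 216 and 258 in CSE-KO, against 332, 284 and 268 in WT (log2 change -0.31 ± 0.17 SE, adjusted p = 0.247). Cox7c had 163, 201 and 153 in CSE-KO, against 223, 215 and 213 in WT (log2 change -0.34 ± 0.17 SE, adjusted p = 0.208). In both every CSE-KO library was below every WT library. Cox5b is listed in the table under the symbol Cox5b-ps, and the RefSeq start of Cox5b lies inside its promoter region, which averaged 113 ± 27.4 in CSE-KO and 110 ± 1 in WT (SD, n = 3 each). A second gene with the symbol Cox5b-ps, on chromosome 13, had only a region 5023 bp from its start. It is counted among the 73 genes and its region among the 15 away from promoters.

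**Figure D3:**
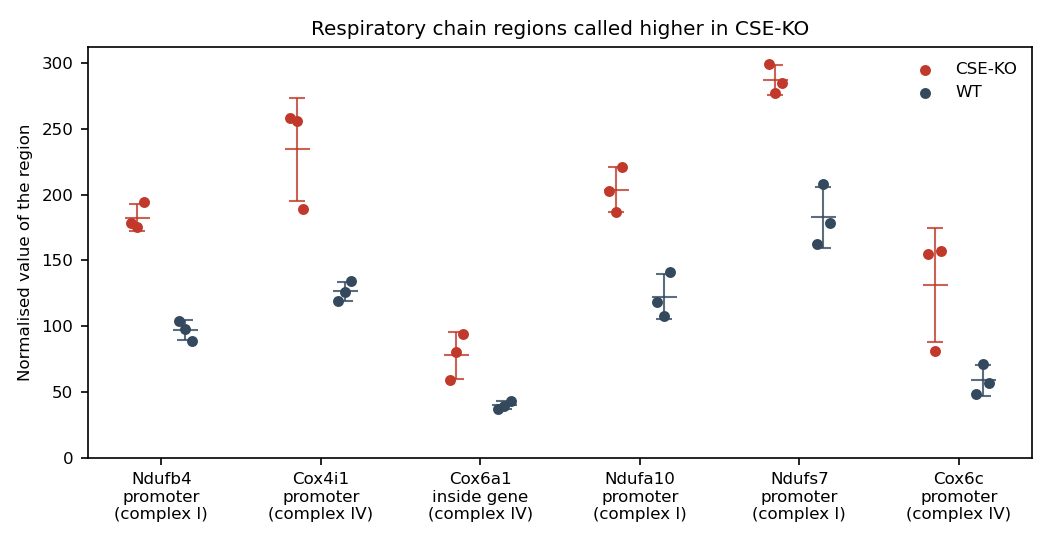
Normalised values (y axis) of the 6 respiratory chain regions called higher, by library (points), with mean and SD (bars), CSE-KO left of WT. In each region all 3 CSE-KO points lie above all 3 WT points, most narrowly at Cox6c, where the lowest CSE-KO value is 81 and the highest WT value 71.

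Complex V, the ATP synthase, had 12 promoters, 9 above 0, a median of 0.16 and no call. On promoter-centred values the median was 0.03, with 6 of 12 above 0, and without WT replicate 2 it was 0.10. Atp5mf, a subunit of the membrane part, had 188, 162 and 220 in CSE-KO, against 115, 137 and 121 in WT (log2 change 0.60 ± 0.18 SE, limma adjusted p = 0.0633). Atp5mg, a membrane subunit as well, had 229, 257 and 153 in CSE-KO and 175, 137 and 124 in WT, with overlap (adjusted p = 0.18). The promoters of the genes for the c-ring, the rotor that protons drive, did not share a direction. Atp5mc2 had 67, 101 and 72 in CSE-KO, against 63, 44 and 48 in WT, and Atp5mc3 had 131, 130 and 179 against 123, 100 and 98 (log2 changes 0.61 and 0.44, limma adjusted p = 0.108 and 0.167). Atp5mc1 had 276, 339 and 346 in CSE-KO, against 397, 425 and 359 in WT (log2 change -0.30, adjusted p = 0.267). At all 3 promoters the groups did not overlap, and the 3 genes encode the same mature protein. The Atp5mc2 promoter region holds no RefSeq start. The nearest one lies 900 bp from its centre, inside the stronger Atp5mc2 region counted as other, whose groups overlapped (log2 change 0.16, limma adjusted p = 0.569). Atp5pf, a subunit of the stalk, had the highest values, 502, 535 and 440 in CSE-KO and 452, 397 and 430 in WT (log2 change 0.20 ± 0.16 SE, adjusted p = 0.417). The catalytic subunit gene Atp5f1b averaged 195 ± 53.2 in CSE-KO and 204 ± 21.2 in WT (SD, n = 3 each).

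**Figure D4:**
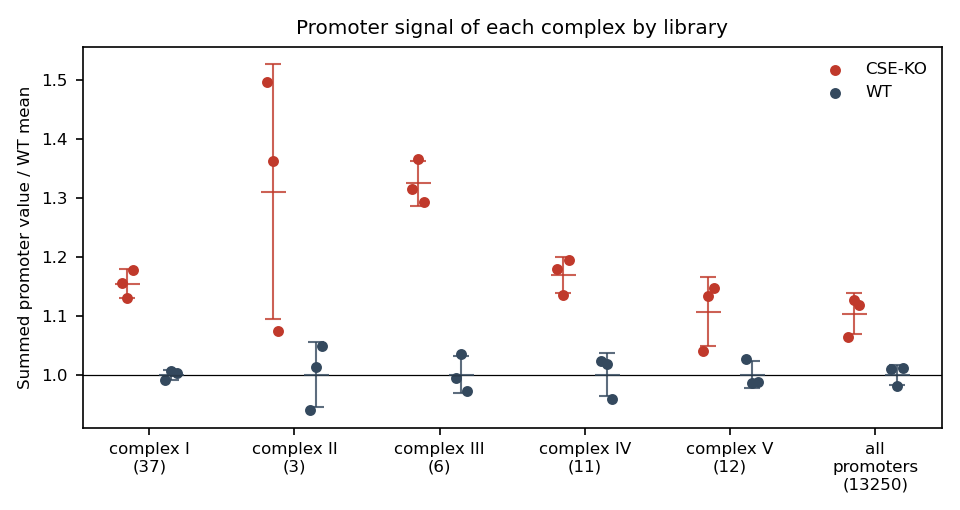
Sum of promoter values of each complex in each library, divided by the WT mean (y axis), with mean and SD (bars), the number of promoters in parentheses, CSE-KO left of WT. The mean ratio is 1.32 for complex III and 1.31 for complex II, whose CSE-KO libraries are spread widely, against 1.1 for all promoters.

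The 15 regions away from promoters were weaker, with a median value of 39.3 against 179 at the promoters, and narrower, at 345 bp against 789 bp. Per kb of region the median values were 138 and 217. By position, the table's own coordinates put 4 of these 15 inside the gene, 10 upstream and 1 downstream, all within 5065 bp of a start site. Limma called 1 of the 15 higher (6.67%) and 0 lower, where 7.92% of the 8585 other regions with a gene were called higher and 10.2% lower. At an unadjusted p under 0.05, 4 were higher (26.7%) and 1 lower (6.67%), against 16.1% and 19% of all such regions. Their median log2 change was 0.22, against -0.02 for all such regions, and was 0.12 without CSE-KO replicate 3.

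The call was at Cox6a1, the common form of subunit 6a of complex IV. The region lies inside the gene, 1188 bp from its start (chromosome 5, 115347572 to 115348014), and had 59, 80 and 94 in CSE-KO, against 37, 39 and 43 in WT. That is 77.7 ± 17.6 in CSE-KO and 39.7 ± 3.06 in WT (SD, n = 3 each), a 1.90-fold rise (log2 change 0.93 ± 0.21 SE, limma adjusted p = 0.0272). The promoter of the same gene had 82, 95 and 113 in CSE-KO and 90, 109 and 102 in WT, with overlapping groups (log2 change -0.06 ± 0.19 SE, adjusted p = 0.849). The call of the inner region ended without CSE-KO replicate 2 or 3 or any of WT replicates 1 to 3 (adjusted p = 0.0597, 0.0546, 0.097, 0.0916 and 0.076). Respiratory chain genes have processed copies elsewhere in the genome, and how reads that fit several copies were counted is not stated in the sources used here.

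Other regions just missed the threshold. The region downstream of Cox5b (chromosome 1, 36696342 to 36696686) had 18, 34 and 25 in CSE-KO, against 50, 42 and 47 in WT (log2 change -0.87 ± 0.25 SE, limma adjusted p = 0.0517), with every CSE-KO library below every WT library. The region upstream of Cox8b, a muscle and brown fat form of subunit 8, had 36, 51 and 39 in CSE-KO, against 27, 27 and 24 in WT (log2 change 0.66 ± 0.19 SE, adjusted p = 0.0531). The region 2548 bp upstream of Cox7a1 had 28, 38 and 33 in CSE-KO, against 21, 23 and 16 in WT (adjusted p = 0.0574), and that 3258 bp upstream of Sdhb had 46, 52 and 43 against 32, 24 and 39 (adjusted p = 0.108). Some of these regions are promoters by another annotation. The region of Cox7a2l, a factor that joins complexes III and IV, has a RefSeq start of the same gene 32 bp from its centre. The 1210 bp distant region of Atp5mc2 has one at 95 bp, and the region of Ndufs6 has the start of Mrpl36, a mitochondrial ribosomal protein, at 191 bp. They averaged 274 ± 32.4, 249 ± 31.8 and 126 ± 17.2 in CSE-KO and 251 ± 8.96, 222 ± 16.5 and 107 ± 3.22 in WT (SD, n = 3 each), and none was called. Both regions of Ndufa4l2, a paralogue of Ndufa4 known to be induced by hypoxia, lay upstream and were not called (116, 144 and 198 in CSE-KO and 89, 83 and 127 in WT for the stronger one, adjusted p = 0.155).

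Promoter and other regions of the same gene could be set against each other in 9 respiratory chain genes. For each library the mean log2 value of the other regions was subtracted from that of the promoter, and limma was run on the differences of all 2032 genes with both. Of these genes, 14.5% were called (9.74% with the promoter gaining on the other regions in CSE-KO, 4.72% with it losing). Of the 9, only Cox6a1 was called, with the promoter losing. Its promoter exceeded its inner region by 0.25 to 0.47 log2 units in the CSE-KO libraries (mean 0.33), against 1.23 to 1.46 in the WT libraries (mean 1.32), a difference of -0.99 ± 0.23 (SE, adjusted p = 0.0223). It was lost on dropping WT replicate 1, 2 or 3 (adjusted p = 0.0743, 0.0924 and 0.0693) and held without each CSE-KO library in turn. Ndufa7 and Ndufc2 pointed the other way, with differences of 1.24 ± 0.39 and 1.06 ± 0.35 (SE, adjusted p = 0.0652 and 0.0733). Ndufa7 passed the test without CSE-KO replicate 2 (1.64, adjusted p = 0.0275) and Ndufc2 without CSE-KO replicate 1 (1.43, adjusted p = 0.0166), and neither passed when any other single library was left out.

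**Figure D5:**
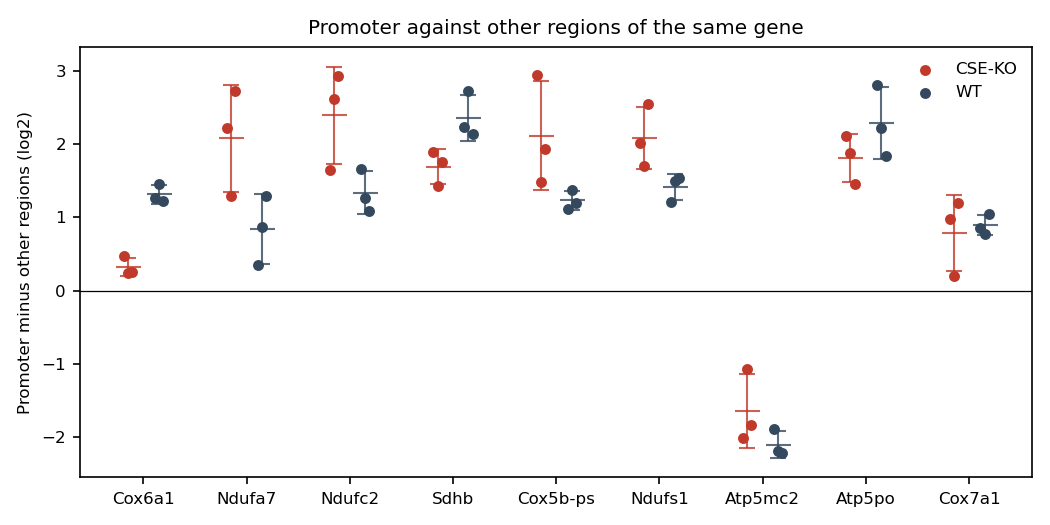
Difference in log2 value between the promoter and the mean of the other regions (y axis) for the 9 respiratory chain genes with both, by library (points), with mean and SD (bars), CSE-KO left of WT. At Cox6a1, on the left, the CSE-KO points (0.25 to 0.47) lie below the WT points (1.23 to 1.46). The points of Atp5mc2 lie below 0 because its other region is the stronger one.

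Many respiratory chain genes share their start with a neighbour. In 13 of the 69 promoters (18.8%) another protein-coding RefSeq gene starts inside the region on the opposite strand, against 7.83% of 11134 protein-coding promoters outside chromosome 18. Of these 13, 10 belong to complex I, among them Ndufs1 with Eef1b2, Ndufa7 with Rps28, Ndufb5 with Mrpl47 and Ndufaf2 with Ercc8. Atp5pf of complex V shares its region with Gabpa, which encodes the GABPA activator. The RefSeq starts used here have gaps. They hold no start, not even the gene's own, in the promoter regions of Cox4i1, Cox6c, Uqcrb, Uqcrc2, Uqcrq, Sdhc, Ndufaf6 and Atp5mpl. Whether these promoters are shared could not be seen, and they were counted as not shared. None of the 13 promoters with a listed opposite start was called, 5 lay below 0 (38.5%) and their median log2 change was 0.11. Of all protein-coding promoters with an opposite start, 4.47% were called, 35% lay below 0 and the median was 0.11, so the shared promoters were near these values. Among the 56 others, 5 were called higher (8.93%) and 0 lower, 10 lay below 0 (17.9%) and the median was 0.32. These 56 include the promoters without a listed start, and with them the called Cox4i1 and Cox6c. Left out of the split are 12 regions named for a neighbour, described below, with a median of 0.27 and 10 above 0. No difference between shared and other promoters was tested. Of all protein-coding promoters without an opposite start, 5.1% were called higher and 2.03% lower, 36.9% lay below 0 and the median was 0.12. The value of a shared region cannot be divided between its genes.

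A further 12 respiratory chain genes start, by RefSeq, inside a region that the table names for a neighbour, so the rule did not take them. They were looked up after the values of the others were known. None of the 12 regions was called. The median log2 change was 0.27 and 10 lay above 0, where 61.4% of all promoters did. In 5 every CSE-KO library was above every WT library, where 23.9% of all promoters had this. Closest to the threshold was the region named for Esf1 that holds the start of Ndufaf5, a complex I assembly factor, with 229, 302 and 358 in CSE-KO, against 185, 136 and 187 in WT (log2 change 0.79 ± 0.23 SE, limma adjusted p = 0.0556). The region named for Zmat5 that holds the start of Uqcr10, a small subunit of complex III, had 274, 237 and 238 in CSE-KO, against 176, 173 and 177 in WT (log2 change 0.50 ± 0.16 SE, adjusted p = 0.0651). The start of Uqcrh, the hinge protein of complex III, lies in the region named for Lrrc41, with 735, 571 and 545 in CSE-KO and 564, 486 and 492 in WT (adjusted p = 0.372). That of Sdhd, the last subunit of complex II, lies in the region named for Timm8b, with 315, 303 and 297 in CSE-KO, against 261, 278 and 231 in WT (log2 change 0.25 ± 0.16 SE, adjusted p = 0.305).

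Genes that build, feed or regulate the chain were counted from lists. Of 28 promoters of assembly factors of complexes II to V, 2 were called higher and 0 lower, with a median log2 change of 0.21, where 5.23% of all promoters were called higher and 3.29% lower. They were Uqcc3, a complex III assembly factor (245, 164 and 167 in CSE-KO, against 83, 111 and 99 in WT, log2 change 0.95 ± 0.22 SE, limma adjusted p = 0.0292), and Atpaf1, an assembly factor of the ATP synthase (109, 155 and 102 in CSE-KO, against 60, 70 and 74 in WT, log2 change 0.81 ± 0.21 SE, adjusted p = 0.0405). Without WT replicates 1, 2 or 3 in turn the Uqcc3 call ended (adjusted p = 0.104, 0.0688 and 0.0911). The Atpaf1 call ended without CSE-KO replicate 1 or 2 (adjusted p = 0.0566 and 0.0688), without WT replicates 1, 2 or 3 (adjusted p = 0.134, 0.111 and 0.0977) and on promoter-centred values (adjusted p = 0.0597). None of the 10 promoters of complex I assembly factors without the Nduf name was called (median 0.13). The smallest p among them were at Lyrm2 and Acad9, with log2 changes of 0.39 and 0.38.

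Of 58 promoters of mitochondrial ribosomal proteins, which translate the subunits encoded in mitochondrial DNA, 6 were called higher and 0 lower (median 0.15), against 5.23% and 3.29% of all promoters. Of 5 other regions 1 was called lower, against 10.2% of all other regions. The Mrpl22 promoter had 253, 245 and 167 in CSE-KO, against 86, 103 and 104 in WT (log2 change 1.16 ± 0.22 SE, limma adjusted p = 0.0148), which was lost on dropping WT replicate 1, 2 or 3 (adjusted p = 0.0632, 0.0537 and 0.054). The region 2532 bp from Mrpl17 had 15, 8 and 13 in CSE-KO, against 43, 51 and 38 in WT (log2 change -1.82 ± 0.25 SE, adjusted p = 0.00682). Of 7 promoters of electron carriers and ubiquinone-linked dehydrogenases, such as those of Cycs, Cyc1 and Sqor, none was called (median 0.16). Cyc1 encodes cytochrome c1, a subunit of complex III that the name rule did not take. Of the 4 other regions of this list, 1 was called higher and 1 lower, against 7.92% and 10.2% of all other regions with a gene. The higher one, near Prodh, proline dehydrogenase, had 26, 31 and 26 in CSE-KO, against 14, 13 and 19 in WT (limma adjusted p = 0.0317). The lower one, near Etfa, which carries electrons from fatty acid oxidation, had 33, 23 and 28 in CSE-KO, against 48, 58 and 48 in WT (adjusted p = 0.0264). The Prodh call ended without any one of CSE-KO replicates 1 to 3 (adjusted p = 0.0511, 0.0698 and 0.0527) or without WT replicate 1 or 2 (adjusted p = 0.11 and 0.113). The Etfa call ended without CSE-KO replicate 2 or 3 (adjusted p = 0.0537 and 0.0515) or any of WT replicates 1 to 3 (adjusted p = 0.0776, 0.0989 and 0.0781).

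Regulators of mitochondrial biogenesis showed no call. Their 11 promoters had a median log2 change of 0.07, below that of all promoters, and their 4 other regions one of -0.08. A region near Hcfc1, a transcriptional coregulator, had 127, 115 and 156 in CSE-KO, against 234, 194 and 181 in WT (log2 change -0.61 ± 0.19 SE, limma adjusted p = 0.0697). The promoter of Thap11, a partner of Hcfc1, had 217, 267 and 205 in CSE-KO, against 175, 177 and 121 in WT (log2 change 0.55 ± 0.22 SE, adjusted p = 0.121).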

How the data were processed

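Open chromatin was profiled in 3 CSE-KO and 3 WT ATAC-seq libraries, grouped by their titles. The build was mm10, and DESeq2 1.26.0, Picard 3.1.1, STAR 2.7.3a and Trimmomatic 0.39 are named, without roles, per the submitters' processing notes. The sources used here give neither the peak caller nor any Tn5 shift. The values that the authors deposited are handled here as a score. They are whole numbers, but have the marks of read counts that the authors divided by size factors and rounded, so no count model was run. Distances to start sites are deposited by the authors, without a sign.

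Limma 3.58.1 in R 4.3.3 was run on log2(value + 1), with trend and robust off, for regions with a mean of at least 5, CSE-KO minus WT, Benjamini-Hochberg adjusted over all of them at 0.05. Fold changes are on this scale, which understates changes of weak regions. All 84 member regions passed the filter. Scripts were tested on simulated data. Promoter windows, starts and synonyms came from RefSeq GRCm38.p6. Members and lists were chosen with earlier results of these data known. Named regions were, per complex, the 4 promoters with the smallest p and the one with the highest mean, every called region, the 3 other regions with the smallest p and 2 regions per pathway list. The complex I promoters named only for groups without overlap, Ndufv1, Ndufa11, Ndufab1, Ndufaf8, Cox7c, Cox5b, Atp5f1b, Atp5mc1, Ndufa7, Ndufc2, the Cox6a1 promoter, the regions that hold starts of other genes, and those of Cox7a1, Sdhb and Ndufa4l2 away from promoters were named after their values were seen.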

Additional observations from a re-analysis of the deposited data

How the results depend on the processing

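Most calls depended on which libraries entered. The number of promoters called higher, 5, ranged from 0 to 5 when single libraries were left out (0 without WT replicate 2 or 3, 1 without WT replicate 1), and none was called lower. The other regions called higher ranged from 0 to 1 and those called lower from 0 to 1. The genes called for promoter against other regions ranged from 0 to 2, all regions called from 3493 to 8918 (10057 with all libraries), the median promoter change from 0.24 to 0.33 and the median change of other regions from 0.12 to 0.32. Promoters called higher were 8 with a pseudocount of 5, 11 with a mean of at least 20, 20 with limma's trend and robust options (15448 of all regions), 3 on promoter-centred values and 1 with a replicate block (6013 of all regions). Over all promoters, the share called higher was 6.8% with a pseudocount of 5, 8.68% with a mean of at least 20 and 15.7% with trend and robust. It was 3.1% on promoter-centred values, 1.95% with the replicate block and 1.12% to 4.3% when single libraries were left out. On promoter-centred values the median was 0.16 at promoters and 0.094 at other regions. Other regions called lower were 1 with a pseudocount of 5, a mean of at least 20, promoter-centred values, trend and robust or array weights. Other regions called higher were 3 with a mean of at least 20, 2 with trend and robust, 2 with promoters within 500 bp (median 0.40) and 0 with promoters within 2.5 kb. Genes called for promoter against other regions were 2 with a pseudocount of 5, a mean of at least 20 or the replicate block, and 0 with 2.5 kb. The matching shares over all other regions and all such genes were not computed for these settings. With no filter or median-ratio rescaling, the counts stayed within 1.5 times. No region had more than 1 symbol, so membership by any symbol took the same regions and could not differ. The causes of these shifts were not tested. Libraries with the same replicate number did not deviate together (r from -0.01 to 0.01 over regions). This cannot show whether the samples were paired by design, which the titles do not state. Of the 425 values of 25 named regions under 17 alternatives, 369 kept their side of the threshold, 33 lost it, 23 gained it and 0 changed sign. The promoter distances and membership by any symbol do not enter the fit of a region, so those values could only stay. The filters, trend and robust, array weights and the replicate block leave the log2 change as it is, so no sign could change there. The lower depth of CSE-KO limits the precision of weak regions.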
